A study of Homo sapiens with 4 samples.

Results

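Integrins and tetraspanins were compared between CD133+ and CD133- cells of Huh7, an established human hepatocellular carcinoma line. The members were the probe sets that the array's annotation pairs with exactly 1 gene symbol and whose symbol names an integrin alpha subunit, an integrin beta subunit, a TSPAN gene, or CD9, CD37, CD53, CD63, CD81, CD82 or CD151. This rule gave 128 probe sets of 54 genes, out of 19775 genes named on the array: 18 alpha subunits, 7 beta subunits, 28 tetraspanins and the antisense RNA gene ITGA9-AS1. The beta subunit gene ITGB6 is not among them, as its probe sets share their annotation with another symbol. The rule itself uses names and no measured value, although it was set with earlier results of these data known.

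Both groups are Huh7 cells with no genetic change or agent named in the labels. Flow cytometry divided them by CD133, a surface protein encoded by PROM1 that is used to enrich liver cancer cells able to start tumours. The comparison asks how cells of this line that carry CD133 differ from those that do not. Each population was measured on 1 array, so there was no replicate error and no test, and every difference describes these arrays alone. How precisely a value is known is limited by this number of arrays. Fewer cells that use a gene and less of its RNA per cell cannot be told apart in such sorted bulk samples.

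Integrins are adhesion receptors made of 1 alpha and 1 beta chain, and the pairing sets what a cell can bind in the extracellular matrix or on other cells. Hepatocytes are known for a restricted set of them, and liver tumours for a wider one. Tetraspanins are small proteins that cross the membrane 4 times and gather integrins, proteases and other receptors into membrane domains; some also mark secreted vesicles. CD133 itself crosses the membrane 5 times and is not a tetraspanin.

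Levels are RMA values, which are on the log2 scale, and differences are CD133+ minus CD133- unless stated otherwise. MAS5 signals, a linear summary of the same arrays by another algorithm, were set beside them as a check and not as a replicate. Where a gene had several probe sets, the one with the highest mean over both RMA columns stood for it. A gene counted as detected when its brighter array exceeded 4.86, which is the median of such brighter values on the chip, and the MAS5 floor of 91.8 was set in the same way. Where the dimmer array of a gene lay below the floor, its difference is given as measured and "at least" marks the fold of the brighter value over the floor. For some genes close to the floor this bound is near 1-fold, and then the difference as measured has little meaning. The brightness of different probe sets does not rank genes, so levels are compared only between the arrays.

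The sort and the line matched their labels in these values. PROM1 stood at 10.49 in CD133+ and 5.33 in CD133- cells. All 8 hepatocyte and tumour markers were detected, from AHSG with a difference of -0.50 to TTR with 0.55, and albumin (ALB) read 13.57 and 13.63. Some markers of other cells were also detected: 4 of 5 for blood cells, 2 of 4 for platelets, 2 of 5 for endothelium and 4 of 7 for stroma. The summed MAS5 signals in CD133+ and CD133- cells were 13120 and 13870 for blood cells, mostly from lysozyme (LYZ), 213 and 211 for platelets, and 347 and 339 for endothelium. Those for stroma were 2818 and 1447, the only one of these sums to differ by more than 1.5-fold. The gap came from COL1A2 (1617 and 670) and LUM (499 and 13.5). COL1A1 was nearly equal (497 and 481), and PDGFRB was lower in CD133+ cells (61.9 and 102). The leukocyte antigen PTPRC, the platelet genes PPBP and GP1BA, the endothelial genes CDH5, KDR and TEK, and the stromal genes DCN, COL3A1 and ACTA2 lay below the floor.

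The promoters of ITGB8, TSPAN8 and ITGA1 show the sequence before the starts of the beta subunit and the tetraspanin with the highest differences and of the alpha subunit with the lowest. No window was matched to ITGA3, the alpha subunit with the largest difference. Each is the stretch of 250 bases before the RefSeq transcription start that lies farthest upstream, in GRCh38.p14, written 5′ to 3′ on the strand of the gene. The positions are chr7:20330650-20330899 on the plus strand, chr12:71158000-71158249 on the minus strand and chr5:52787666-52787915 on the plus strand. Capitals mark the letters GGGCGG (a GC box), CCAAT and TATAAA on either strand.
ITGB8: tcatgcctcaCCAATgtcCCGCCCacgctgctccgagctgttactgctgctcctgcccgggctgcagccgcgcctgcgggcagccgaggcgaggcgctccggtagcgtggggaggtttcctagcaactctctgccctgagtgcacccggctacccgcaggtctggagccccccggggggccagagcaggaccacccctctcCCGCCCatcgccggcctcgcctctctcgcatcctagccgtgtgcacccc
TSPAN8: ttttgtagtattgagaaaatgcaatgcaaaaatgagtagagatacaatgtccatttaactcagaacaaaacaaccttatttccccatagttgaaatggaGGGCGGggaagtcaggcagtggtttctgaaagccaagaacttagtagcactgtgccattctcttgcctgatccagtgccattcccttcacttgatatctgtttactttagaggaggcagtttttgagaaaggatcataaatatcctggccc
ITGA1: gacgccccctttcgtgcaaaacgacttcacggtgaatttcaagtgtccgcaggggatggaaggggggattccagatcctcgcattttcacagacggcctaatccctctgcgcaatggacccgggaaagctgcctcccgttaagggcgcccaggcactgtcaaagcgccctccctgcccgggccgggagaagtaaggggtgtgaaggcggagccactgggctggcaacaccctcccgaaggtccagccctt
The ITGB8 stretch held 71.2% G and C, with GGGCGG on the opposite strand starting 232 and 49 bases before the start site and CCAAT 240 bases before it. The TSPAN8 stretch held 40.8% G and C and 1 GGGCGG, 151 bases before the start. The ITGA1 stretch held 62% G and C and none of the 3 motifs. Over all 35116 RefSeq windows of this length, 42.6% held GGGCGG, 32% CCAAT and 10.7% TATAAA. Of 61 windows matched to 36 member genes, 35 held GGGCGG, 10 CCAAT and 2 TATAAA. A match is a description of the letters and not a measured site.

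The integrin and tetraspanin genes mostly differed little between the populations, and a single member, ITGB8, reached 2-fold as measured, against a CD133- value below the floor. Of the 54 genes, 46 were detected: 13 alpha subunits, all 7 beta subunits and 26 tetraspanins. Among these, 25 had a positive and 21 a negative difference, with a median of 0.03 against -0.01 over all 12899 detected genes. Of all detected genes, 5885 had a positive and 6596 a negative difference. At a difference of 2-fold or more as measured, 1 member was higher (2.17% of 46) and 0 were lower, while 1.65% of all detected genes were higher and 0.116% lower. With values below the floor set to it, 0 members and 1.33% of all detected genes were higher at 2-fold. At 1.5-fold or more, the higher members were ITGB8, ITGA3 and TSPAN8 (6.52% of 46, against 3.67% of all detected genes), and the lower ones were ITGA1 and TSPAN14 (4.35%, against 1.01%). These shares rest on 1 to 3 genes each, and the share at 2-fold is near that of all genes.

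Spread was read from genes with several probe sets, which can match different transcripts, so it is not technical error alone. The pooled SD of the differences of probe sets of 1 gene was 0.168 (log2) over 6042 genes, and 0.137 over the 18 members with more than 1 probe set above the floor. It does not cover repeated sorting, culture or hybridization, of which there was none here. Differences larger than 0.335, which is 2 times the spread over all genes, were seen for 12 of 46 members (26.1%) and for 13.2% of all detected genes. The 12 members were ITGB8, ITGA3, TSPAN8, TSPAN12, ITGAV, TSPAN13 and TSPAN3 on the higher side, and TSPAN14, ITGA1, ITGB2, ITGAL and ITGA6 on the lower. With values below the floor set to it, ITGB2 left this group, and the shares were 11 of 46 members (23.9%) and 12.4% of all detected genes. The member rule was set with earlier results of these data known, so these shares cannot measure an excess over all genes. The SD of the differences over members was 0.41, against 0.32 over all detected genes, and without ITGB8 it was also 0.32.

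**Figure D1:**
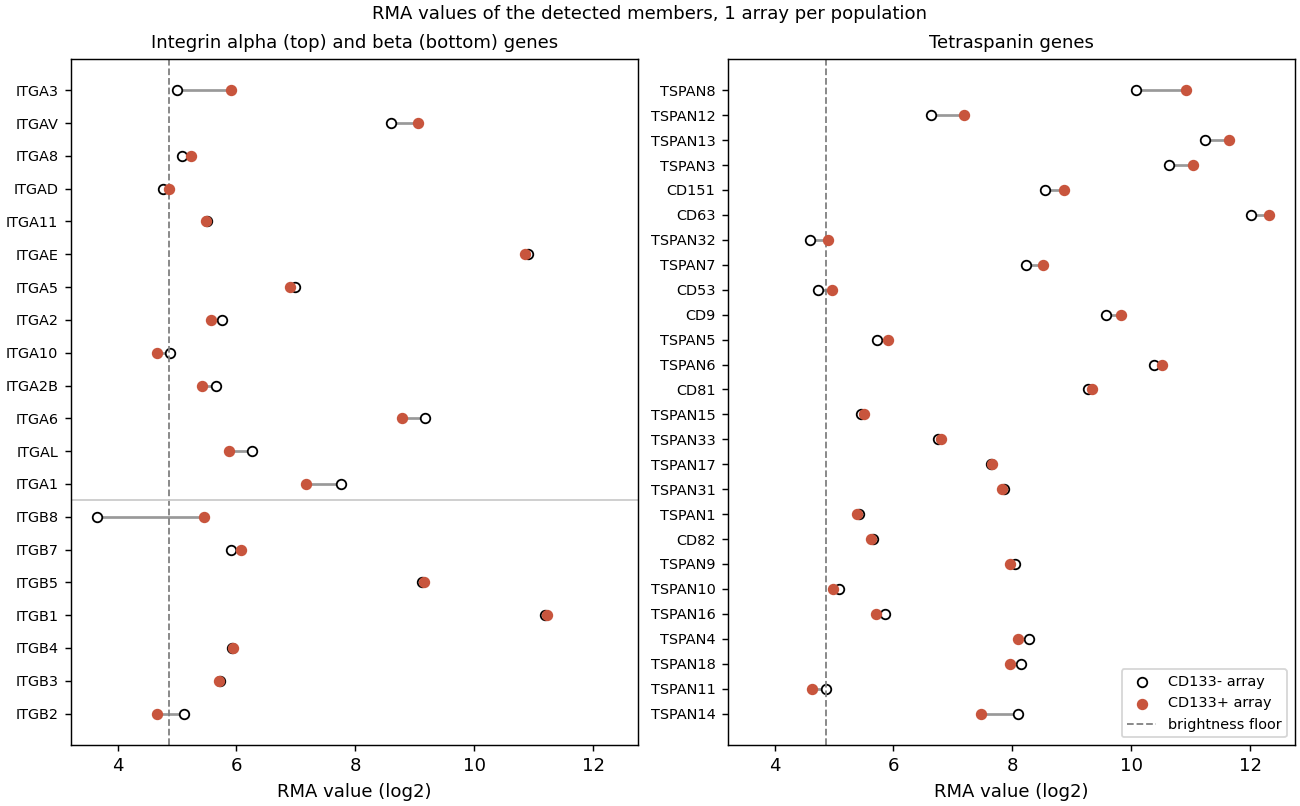
RMA values (log2, horizontal axis) of the 46 detected members, with the CD133- array as an open and the CD133+ array as a filled circle, joined by a line; genes are ordered by difference within alpha subunits, beta subunits and tetraspanins. The longest line is that of ITGB8, from 3.65 to 5.45 across the floor of 4.86, and most other lines are short.

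Among beta subunits, ITGB8 was higher in CD133+ cells, ITGB2, dim on both arrays, differed by -0.46 (at least 1.20-fold lower), and the other 5 lay within 0.18 of equality. ITGB8 encodes β8, which pairs with αv to form a receptor that binds latent TGF-beta. Its RMA value was 5.45 in CD133+ and 3.65 in CD133- cells, a difference of 1.80 or 3.49-fold as measured. Since the lower value lay below the floor, the bound is at least 1.51-fold. MAS5 signals were 489 and 77.9, and the bound against the MAS5 floor was at least 5.33-fold. The gene has 5 probe sets, and the other 4 were below the floor on both arrays with differences of 0.37, 0.33, 0.23 and -0.23. The call for ITGB8 therefore rested on 1 probe set. With the mean over its probe sets, or with the floor at the upper quartile of 6.79, the gene lay below the floor and was not counted.

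ITGB1, the partner of most alpha chains, was nearly equal, with 11.22 in CD133+ and 11.19 in CD133- cells. The remaining bright probe sets of this gene gave -0.20 and -0.09. ITGB5, which forms the vitronectin receptor αvβ5, read 9.16 and 9.13, and its 4 probe sets above the floor ranged from -0.09 to 0.15. ITGB4, the hemidesmosomal partner of α6, read 5.95 and 5.92. ITGB3, known from platelets and endothelium, read 5.70 and 5.72, and ITGB7, a leukocyte chain, 6.08 and 5.91. ITGB2, the leukocyte β2 chain, had 4.66 and 5.12, but its MAS5 signals of 11.0 and 13.5 were below the MAS5 floor and another of its probe sets, below the RMA floor, differed by 0.45. MAS5 signals of the representing ITGB3 and ITGB7 probe sets were below the MAS5 floor as well. Another ITGB3 probe set, above the RMA floor, had MAS5 signals of 59.2 and 111, the first below the MAS5 floor. Its RMA difference was 0.05.

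Among alpha subunits, the laminin receptor chain ITGA3 and the αv chain ITGAV were higher, while ITGA1 and ITGA6 were lower. ITGA3 encodes α3, which pairs with β1 to bind laminins of epithelial basement membranes. Its only probe set, whose ID carries the mark of sets that can match several transcripts, read 5.90 in CD133+ and 5.00 in CD133- cells, a difference of 0.90. By MAS5 the signals were 115 and 12.0, the second below the MAS5 floor, which gives at least 1.25-fold. ITGAV, the common partner of β1, β3, β5, β6 and β8, read 9.06 and 8.60, with MAS5 signals of 3074 and 2156. The differences for the chains of αvβ8 were thus 0.46 and 1.80, the latter as measured against a CD133- value below the floor. The other detected αv partners ITGB1, ITGB5 and ITGB3 differed by 0.03, 0.03 and -0.02. These are RNA values, and the αvβ8 receptor itself was not measured.

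ITGA1 encodes the α1 chain of a collagen receptor and was the lowest alpha subunit. It read 7.16 in CD133+ and 7.77 in CD133- cells, a difference of -0.60, and its probe sets below the floor differed by -0.38 and -0.54. MAS5 signals were 906 and 1219. The other 3 collagen-binding alpha chains differed by less: -0.22 for ITGA10 (at least 1.02-fold), -0.17 for ITGA2 and -0.02 for ITGA11. The second ITGA2 probe set was equal on both arrays by RMA, and the MAS5 log2 ratios of ITGA2 and ITGA11 were positive, 0.11 and 0.39, the latter from signals below the MAS5 floor. Of these 4 chains, ITGA1 alone differed by more than 0.335. ITGA6, the α6 laminin receptor chain, read 8.79 and 9.17, a difference of -0.38, and its second probe set gave -0.36. The laminin-binding chains α3 and α6 therefore differed in opposite directions, and the third, ITGA7, was below the floor.

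The remaining alpha chains lay within 0.40 of equality. ITGA5, the fibronectin receptor chain, read 6.90 and 6.99. ITGAE, which encodes the αE chain known from intraepithelial lymphocytes as a receptor for E-cadherin, read 10.86 and 10.91, with MAS5 signals of 8722 and 8582. It was thus bright in both populations and nearly equal. ITGAL, the α chain of the leukocyte receptor LFA-1, read 5.88 and 6.27 and differed by -0.39 on its brightest probe set and -0.22 on the other, while its MAS5 log2 ratio was 0.17. ITGA2B and ITGA8 differed by -0.24 and 0.15, and ITGAD by 0.11 (at least 1.01-fold). ITGA4, ITGA7, ITGA9, ITGAM, ITGAX and the antisense gene ITGA9-AS1 were below the floor on both arrays. Among all 13 detected alpha chains, 4 differences were positive and 9 negative, with a median of -0.09. Over all detected genes, 5885 were positive and 6596 negative.

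Among tetraspanins, TSPAN8 was the highest and TSPAN14 the lowest. TSPAN8 is the tumour-associated antigen CO-029 of gastrointestinal and liver cancers. Its probe set read 10.92 in CD133+ and 10.08 in CD133- cells, a difference of 0.84 or 1.79-fold. MAS5 signals of 10971 and 6047 gave a similar ratio, 1.81-fold, with both arrays far above the floor. The gene is represented by 1 probe set.

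TSPAN14 belongs to the TspanC8 group, which binds the protease ADAM10 and governs its passage to the cell surface. It read 7.47 in CD133+ and 8.09 in CD133- cells, a difference of -0.61, and its second probe set gave -0.42. By MAS5 the difference was smaller, with 775 and 951. Of the other TspanC8 genes, TSPAN5 differed by 0.19, with a MAS5 log2 ratio of 0.45. TSPAN10, TSPAN15, TSPAN33 and TSPAN17 differed by -0.10, 0.05, 0.05 and 0.02, all inside the probe set spread of 0.168. By MAS5 the log2 ratios of TSPAN15, TSPAN33 and TSPAN17 were negative, -1.23, -0.17 and -0.18, so these genes had no settled direction. ADAM10 itself read 9.91 and 10.01.

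Of the 6 detected CD-named tetraspanins, 5 had positive differences, beside 5885 of all 12899 detected genes. CD151, which binds laminin receptors such as α3β1 and α6β1, read 8.86 and 8.55. CD63, a protein of late endosomes and secreted vesicles, read 12.32 and 12.01. CD9, a widely expressed adhesion regulator, read 9.82 and 9.58. CD81, a hepatitis C virus entry receptor, read 9.34 and 9.27. CD82, known as the metastasis suppressor KAI1, read 5.62 and 5.66, with MAS5 signals of this probe set below the MAS5 floor. Its second probe set, with 98.1 in CD133- cells just above that floor, differed by -0.24 by RMA. The median of the group was 0.24, and each of these differences was below 0.335.

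CD53, a leukocyte tetraspanin, read 4.97 and 4.73 by RMA, on either side of the floor (at least 1.08-fold), while MAS5 gave 181 and 20.3 (at least 1.97-fold). Its other probe sets, below the floor, differed by 0.28 and 0.21. CD37, also of leukocytes, was below the floor. The blood cell markers beside them moved little: of the 4 detected, CD14 was lowest with -0.25 and HBB and LYZ were equal within 0.01, LYZ at 11.11 on both. The labels name Huh7 cells and no blood cells. The source of the CD53, ITGAL and ITGB2 signals was not tested.

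In the rest of the TSPAN genes, the bright TSPAN3, TSPAN12 and TSPAN13 were higher by about the size of ITGAV. TSPAN12, a component of Norrin and Frizzled-4 signalling, read 7.19 and 6.64, and its 3 probe sets gave 0.55, 0.14 and 0.39. TSPAN13 read 11.65 and 11.23, with MAS5 signals of 18802 and 14486. TSPAN3 read 11.04 and 10.64 and its probe sets were split, with 0.40 and 0.50 on the bright ones and -0.08 on a dimmer one above the floor. TSPAN7 and TSPAN6 differed by 0.28 and 0.13, and TSPAN32 by 0.30 (at least 1.03-fold). The other TSPAN32 probe set, below the floor, differed by -0.26. TSPAN9, TSPAN31 and TSPAN1 were within 0.10 of equality. TSPAN16, TSPAN4, TSPAN18 and TSPAN11 differed by -0.14, -0.18, -0.19 and -0.24 (TSPAN11 at least 1.01-fold), and TSPAN2 was below the floor. Of the 26 detected tetraspanins 16 had positive differences, beside 5885 of all 12899 detected genes. Their median was 0.06, with an interquartile range from -0.07 to 0.29.

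**Figure D2:**
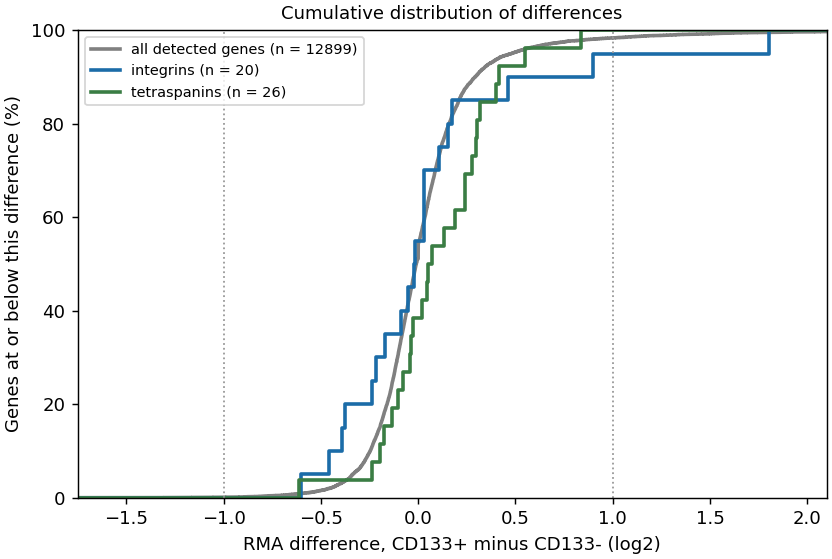
Cumulative share of genes (percent, vertical axis) against the RMA difference CD133+ minus CD133- (log2) for 20 detected integrin genes, 26 detected tetraspanins and all 12899 detected genes; dotted lines mark 2-fold. The tetraspanin curve lies to the right of the others over its middle part, with an upper quartile of 0.29 against 0.12 over all genes.

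Probe sets of the same member mostly gave similar differences. Of the 18 members with more than 1 probe set above the floor, 11 had the same sign on all of them. The widest ranges were those of TSPAN3 (-0.08 to 0.50) and TSPAN12 (0.14 to 0.55). The narrowest was that of ITGA11, whose 2 probe sets gave -0.02 each.

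**Figure D3:**
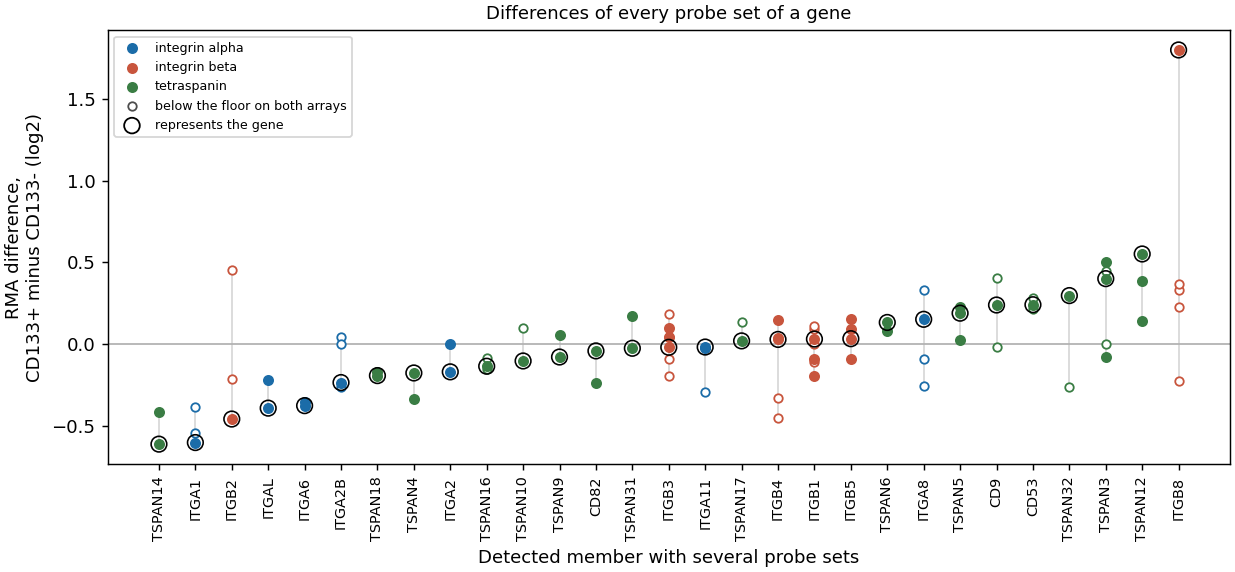
RMA difference (log2, vertical axis) of every probe set of the detected members that have several, ordered by the representing probe set (ringed); filled points lay above the floor on at least 1 array and open points below it on both. ITGB8 stands at 1.80 on its only filled point, with its 4 open points between -0.23 and 0.37.

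By MAS5, 35 of the 46 detected members lay above the MAS5 floor, and 25 of these had the same sign by both algorithms, as did 8983 of 11605 genes above both floors. Of 36 members above the MAS5 floor, which include ITGAM, CD53, ITGA3, ITGB8 and TSPAN32 passed 2-fold higher by MAS5 as measured and TSPAN15 2-fold lower. Over the 12251 genes above that floor the shares were 4.47% higher and 1.71% lower. The dimmer signal of each of these 5 members lay below the MAS5 floor. With signals below it set to the floor, ITGB8 alone passed 2-fold (at least 5.33-fold), beside 2.55% higher and 0.4% lower over all genes. TSPAN15 read 76.4 and 179 (at least 1.95-fold lower), and TSPAN32 read 123 and 47.2 (at least 1.33-fold higher). The other TSPAN32 probe set, below the MAS5 floor, went the other way with 9.12 and 52.1. The 11 members whose representing probe set lay below the MAS5 floor were CD82, ITGA8, ITGA11, ITGAD, ITGB2, ITGB3, ITGB7, TSPAN1, TSPAN10, TSPAN11 and TSPAN16, so the RMA differences given for them describe probe sets dim by MAS5. Other probe sets of CD82, ITGA11 and ITGB3 lay above that floor.

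**Figure D4:**
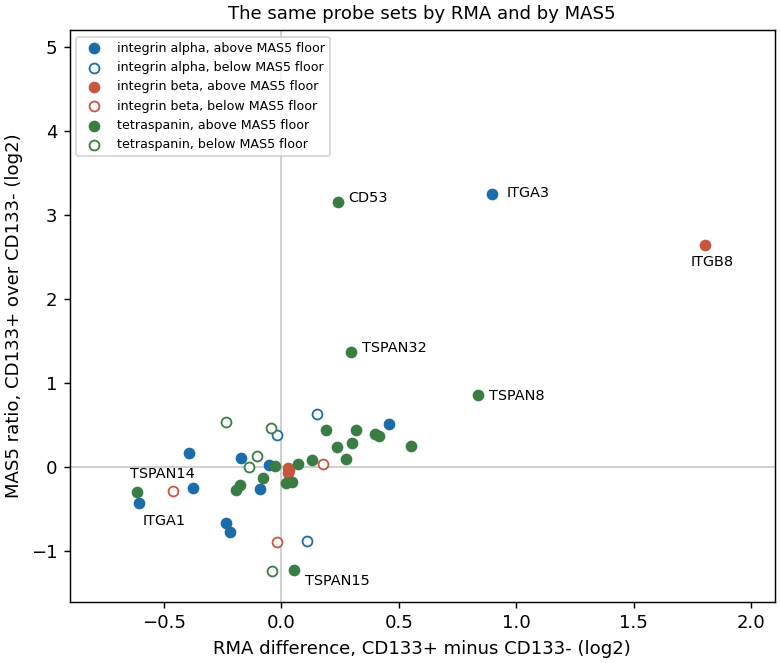
RMA difference (log2, horizontal axis) against the log2 ratio of MAS5 signals (vertical axis) for the 46 detected members; open points lay below the MAS5 floor. ITGB8, ITGA3 and TSPAN8 are positive on both axes, while CD53 is at 3.15 by MAS5 and 0.24 by RMA, each measured against a CD133- value below its floor.

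Genes that work with integrins and tetraspanins were read from lists that do not include the members. These lists were chosen with earlier results of these data known, so their shares cannot measure an excess over all genes. Of 38 integrin ligands, 26 were detected, 20 with positive and 6 with negative differences, and the median was 0.14. Over all detected genes, 5885 differences were positive and 6596 negative. At 2-fold as measured, 3 were higher (11.5% of 26, against 1.65% of all detected genes): the matrix protein fibrillin 1 (FBN1, at least 1.57-fold, with 5.51 and 3.82), the collagen chain COL1A2 (8.48 and 7.15) and THBS1, a matricellular thrombospondin (at least 1.51-fold, with 5.45 and 4.20). With values below the floor set to it, COL1A2 alone remained at 2-fold, beside 1.33% of all detected genes. None of the 3 was counted with the mean over probe sets, or without probe sets marked as shared. The laminin chains LAMC1, LAMA5 and LAMB1 differed by 0.50, 0.36 and 0.25, and LAMA4 by -0.48. VCAM1, the ligand of α4β1, was the lowest with -0.56, and fibronectin (FN1) was equal within 0.03. Of the 7 stromal markers 4 were detected, and 2 of these, COL1A1 and COL1A2, are also in the ligand list. The other 2 went opposite ways: LUM read 6.08 and 2.17 (at least 2.33-fold higher), and PDGFRB differed by -0.25. Another LUM probe set, below the floor on both arrays, differed by 0.11. The labels name Huh7 cells and no stromal cells, so these are markers by gene name only. The source of their signals was not tested.

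The cytoplasmic adaptors lay close to equality. Of 36 integrin adaptors and focal adhesion genes, 31 were detected, and the median was 0.02. Of these, 30 (96.8%) were within 0.5 of equality, near the 93.8% of all detected genes. CAPN2, a calpain protease that cleaves talin, was the exception with 6.12 and 4.41 (at least 2.39-fold). It alone was higher at 2-fold as measured (3.23% of 31, against 1.65% of all detected genes). Its other probe set differed by 0.09, and CAPN2 was not counted with the mean over both. Vinculin (VCL), the focal adhesion kinase gene PTK2 and talin (TLN1) differed by 0.28, -0.17 and 0.12, and KANK1 was lowest with -0.43.

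Partners of tetraspanins had mostly positive differences. Of 20 listed, 18 were detected, 14 with positive differences, beside 5885 of all 12899 detected genes. The median of the partners was 0.21. At 2-fold, 3 were higher (16.7% of 18, against 1.65% of all detected genes), CLDN7, DPP4 and EPCAM, each with both arrays above the floor. This list too was chosen with earlier results known, so its share cannot measure an excess. CLDN7 and EPCAM, which form a membrane complex with TSPAN8 and CD44 in other carcinomas, read 8.13 and 6.26, and 11.21 and 10.03. DPP4, the ectopeptidase CD26, read 9.18 and 7.69, and its other probe sets gave 1.42 and 1.49. CD44 differed by 0.91 and EGFR by 0.57, whereas IGSF8, PTGFRN and IGSF3, immunoglobulin partners of CD9 and CD81, differed by 0.08, 0.12 and 0.27. Of 4 tetraspanins outside the rule, 3 were detected, and UPK1B, UPK1A and ROM1 differed by -0.42, -0.32 and -0.12.

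**Figure D5:**
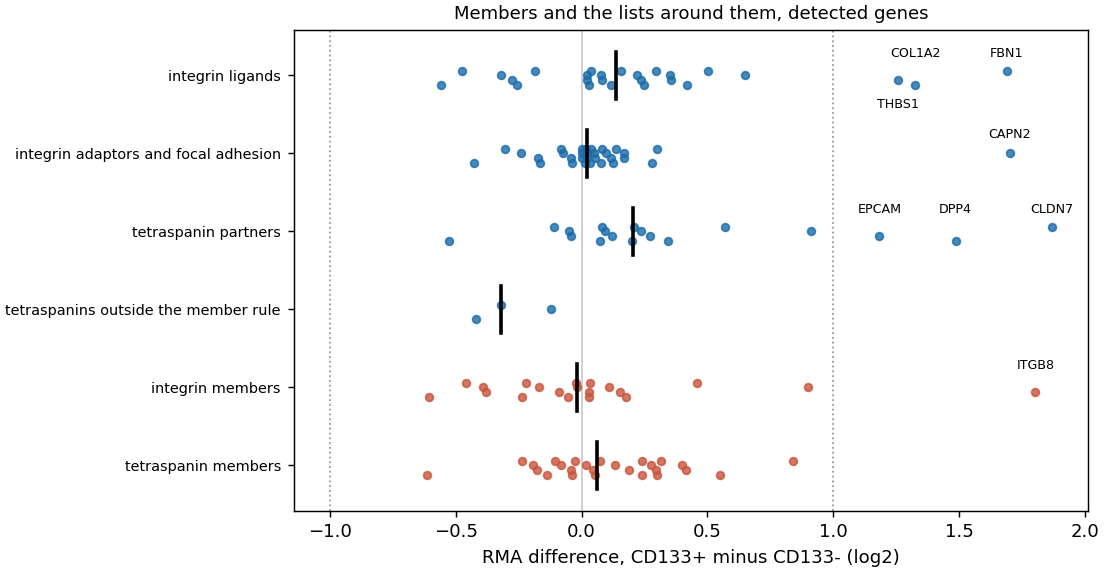
RMA difference CD133+ minus CD133- (log2, horizontal axis) of the detected genes of each list, with vertical bars at the medians and dotted lines at 2-fold; member genes are in red. The adaptors cluster around 0.02, and the partner list reaches from -0.53 (HBEGF, at least 1.09-fold lower) to 1.87 (CLDN7).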

How the data were processed

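Huh7 cells were sorted by CD133, and total RNA was taken with Trizol, per the labels' protocols. The deposited table has 54675 probe sets in 4 columns, each population once by MAS5 and once by RMA. These were taken as 1 array per population, since the labels differ only in the algorithm. The authors' MAS5 intensity values are linear, with a trimmed mean (2% off each end) of 500.1 on both arrays. Per the submitters' processing notes, MAS5 and GCOS were used; they give no version. The authors' RMA values are on the log2 scale, per the labels and the values. The RMA software and its version: not given in the sources used here. Because RMA quantile normalizes, it hides a global shift between populations.

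The platform annotation gave 1 symbol to 41097 probe sets, updated through Entrez numbers to GRCh38.p14. Probe sets with several symbols (1801) or none (11777) were left out. Differences, floors and 2-fold or 1.5-fold counts were computed with Python 3.11.15, numpy and pandas, and the steps were tested on simulated data. Each gene changed in the simulation had a probe set well above the floor, so it does not cover calls near the floor such as ITGB8. Members with a difference of at least 0.58, and the brightest or best known of each role group, are given with their values. Of the lists, genes at 2-fold and the extremes are named, with further genes chosen for their role after their values were seen. The members and lists were chosen with earlier results of these data known. Alternatives were MAS5, both algorithms together, other floors, other probe set choices and 1.5-fold; requiring both floors, and setting values below a floor to it, were added after seeing the data.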

Additional observations from a re-analysis of the deposited data

How the results depend on the processing

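With 1 array per population, no replicate could be left out and no paired analysis was possible because each group has 1 sample. Counts of 2-fold members and list genes moved most with the algorithm. With MAS5, 4 members were higher (1 alpha subunit, 1 beta subunit and 2 tetraspanins) and 1, a tetraspanin, was lower, while 548 and 209 of all 12251 genes were; the ITGB8 difference was 2.65 and the ligand median 0.32. With MAS5, 5 partners were higher and 1 lower, and 2 adaptors were higher and 1 lower. At 1.5-fold, 3 members were higher (1 alpha subunit, 1 beta subunit, 1 tetraspanin) and 2 lower (1 alpha subunit, 1 tetraspanin). With the upper quartile floor of 6.79, 0 members, 0 beta subunits and 0 adaptors and 1 ligand were higher, as ITGB8 lay below it. With the mean over probe sets, 0 members, 0 beta subunits, 0 ligands and 0 adaptors were higher. Dim probe sets entered the mean for ITGB8 and the ligands, and for CAPN2 a probe set above the floor that differed by 0.09. With RMA values below the floor set to it, an alternative chosen after seeing the data, 0 members, 0 beta subunits and 1 ligand were higher and the ITGB8 difference was 0.60. With MAS5 signals treated likewise, the ITGB8 difference was 2.41 and the ligand median 0.32, and ITGB8 was the only member at 2-fold. Without probe sets marked as shared, 0 ligands were higher and ITGB8 was kept. No floor, both algorithms together, and both floors required left each of these counts within 1.5 times and each median within 0.168 of its value. No list median moved by more than that except the ligand median by MAS5. By MAS5, 16 of 34 other member differences moved by more than 0.168, among them ITGA3, CD53 and TSPAN32.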
